A study of Mus musculus with 8 samples.

Results

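Metallothioneins are small, cysteine-rich proteins that bind zinc and copper, and their genes are switched on by zinc, by glucocorticoids and by stress. Metal-responsive transcription factor 1 (Mtf1) senses free zinc and binds short metal response elements in metallothionein promoters and in that of Slc30a1, which carries zinc out of the cell, while Slc39a14 and Slc39a8 carry zinc, manganese and iron in. In growing cartilage zinc is a cofactor of the matrix metalloproteinases and of many transcription factors.

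The genes described here are 6 of the 18193 genes that the array names from probe sets with a single gene symbol: Mt1, Mt2, Mtf1, Slc30a1, Slc39a14 and Slc39a8. Every probe set annotated to one of these symbols alone was taken, 16 in all. They were chosen with their signals on all 8 arrays and their co-variation across the pools known, so levels, genotype differences and correlations of these genes are given as a description, with no test.

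RNA came from primary chondrocytes, the cells of cartilage, freed by collagenase and trypsin from rib cages of FVB mouse embryos at E18.5. Embryos of 4 litters were sorted by genotype into 1 pool of wild type controls and 1 pool of Hoxd4 transgenic embryos per litter, and each pool was hybridised to 1 one-colour array, 4 per group. Hoxd4 is a homeobox gene that helps to pattern the neck vertebrae, and the study asked how its overexpression changes chondrocyte transcripts. The promoter of the transgene, the number of embryos in a pool and their sex are not stated in the labels. Litters are called 1 to 4 here after the replicate number in the sample titles; the control and transgenic samples of 1 number also share a sample code that differs only in its genotype suffix. Arrays of 1 litter may share handling as well as a mother, which cannot be told apart here.

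Array medians ran from 100.5 to 115 MAS5 units, and all 15 chondrocyte markers on the array were bright, with Col2a1, the main cartilage collagen, between 36480 and 50824. The 8 hepatocyte markers measured, a list of interest because liver makes much metallothionein, never exceeded 144.5. The brighter of the pair of probe sets assigned to Hoxd4 and Hoxd3 together was higher in the transgenic array of litters 1, 2 and 3 but lower in that of litter 4 (13.0 against 256), so each direction below rests on the labels. Xist, the RNA of the inactive X chromosome, was below its control in 3 of 4 transgenic pools (log2 fold change -3.68). In 4 of 4 litters the transgenic pool had more signal of the Y-linked genes Eif2s3y (0.92), Uty (0.86) and Kdm5d (0.75). The part of these sex-linked differences in the genotype differences below was not tested. In these bulk pools, fewer cells of a type and less RNA per cell cannot be told apart.

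Mt1 and Mt2 lie next to each other on mouse chromosome 8, with Mt3 and Mt4 as the next protein-coding genes on one side and Nup93 on the other. Promoter windows from RefSeq (GRCm38.p6) were found for 5 of the 6 genes. A script searched each window, from 250 bases before to 50 after the annotated start, for TGCACNC and TGCGCNC, the core of the metal response element, on both strands. Matches on opposite strands may share bases and were counted separately. The stretches from 120 before to 30 after the start are shown for Mt1 (chr8:94178969-94179118, plus strand) and Mt2 (chr8:94172498-94172647, plus strand), because these genes varied together across the pools. Capitals mark the matches.
Mt1: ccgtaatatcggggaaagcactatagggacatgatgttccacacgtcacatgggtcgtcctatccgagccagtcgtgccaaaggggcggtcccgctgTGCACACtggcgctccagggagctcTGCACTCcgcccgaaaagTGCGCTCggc
Mt2: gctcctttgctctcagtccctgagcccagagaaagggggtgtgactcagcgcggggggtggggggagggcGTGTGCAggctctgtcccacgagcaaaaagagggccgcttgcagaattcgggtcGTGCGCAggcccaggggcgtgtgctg
The Mt1 window held 3 matches, whose first bases lie at -23, 3 and 21 from the annotated start, all in the direction of the gene. The Mt2 window held 4, at -223 and -128 in the direction of the gene and at -50 and 5 on the opposite strand. The Slc30a1 window held 2 matches, the Mtf1 window 0, and the windows of the 2 annotated starts of Slc39a8 held 0 and 1. Of 32851 promoter windows in the table, 25.7% held at least 1 match, 7.11% at least 2, 1.97% at least 3 and 0.517% at least 4. A match is a run of letters, not a measured binding site. The positions depend on the annotated start, and stretches outside the windows were not searched, so further elements may be missed.

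Mt1 and Mt2 signals followed the litter and not the genotype label. The brighter Mt1 probe set gave 15138, 12796, 12781 and 8064 units in the wild type pools, in the order of litters 1 to 4. The matching transgenic pools gave 14546, 16723, 11210 and 8120. Both arrays of litter 4 were below all 6 others, and the genotype groups overlapped. The identifier of this probe set marks it as one that can bind more than 1 transcript.

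Mt2, the isoform gene expressed alongside Mt1 in most tissues, gave 10034, 9082, 7641 and 5746 units in the wild type pools and 9698, 10678, 7697 and 5341 in the transgenic pools, again in litter order, as for all such values that follow. Litter 4 was again the lowest in both pools, litter 3 came next, and litters 1 and 2 were high in both. The dimmer Mt1 probe set had 2834, 2603, 2819 and 1870 in the controls and 2943, 3434, 2299 and 1328 in the transgenics. It too was lowest in both pools of litter 4. The mean of the 6 other arrays was 1.71 times that of litter 4 for the brighter Mt1 probe set, 1.76 times for the dimmer one and 1.65 times for Mt2.

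**Figure D1:**
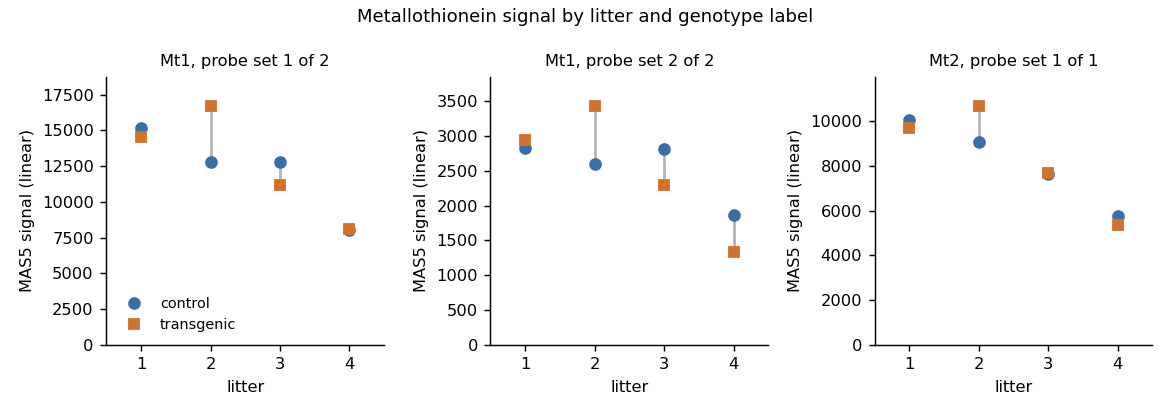
MAS5 signal on a linear scale of both Mt1 probe sets and the Mt2 probe set, by litter, with 1 point per array (blue circles control, orange squares transgenic) and a grey line joining the arrays of a litter. Both arrays of litter 4 sit below every other array in each panel, at 8064 and 8120 for the brighter Mt1 probe set.

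On the log2 scale the litter accounted for 91.4% of the sum of squares of the brighter Mt1 probe set over the 8 arrays, 81.6% of that of the dimmer one and 96.5% of that of Mt2. The median over all tested probe sets was 52.1%. Of them, 0.688% reached the share of Mt2, 3.56% that of the brighter Mt1 probe set and 12.2% that of the dimmer one. Genotype accounted for 0.256% of the sum of squares of the brighter Mt1 probe set. The size of the litter share rests largely on litter 4: without its arrays it was 56.1%, 32.3% and 86.0% for the 3 probe sets in the order given.

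The metallothioneins moved together. Over the 8 arrays the brighter Mt1 probe set and Mt2 had a Pearson r of 0.98 and a Spearman rho of 0.95. Without both arrays of litter 4, which lay farthest from the median, r was 0.91 and rho 0.94 over 6 arrays. The log2 ratio of Mt1 to Mt2 spanned 0.25 over the arrays, whereas Mt1 spanned 1.05 and Mt2 1.00. The dimmer Mt1 probe set had an r of 0.94 with the brighter one and 0.93 with Mt2. Without litter 4 these were 0.93 and 0.74, and its rho with Mt2 was 0.77. The pairing by litter contributes to these values, since the arrays of a litter resemble each other: over the transgenic-minus-control differences of the 4 litters alone, Mt1 and Mt2 had an r of 0.79. The brighter Mt1 probe set and Mt2 were higher in the transgenic array of litter 2, by 0.39 and 0.23 on the log2 scale. In the other litters their differences lay between -0.19 and 0.01 and between -0.10 and 0.01. The dimmer Mt1 probe set differed by 0.05, 0.40, -0.29 and -0.48 in litters 1 to 4.

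**Figure D2:**
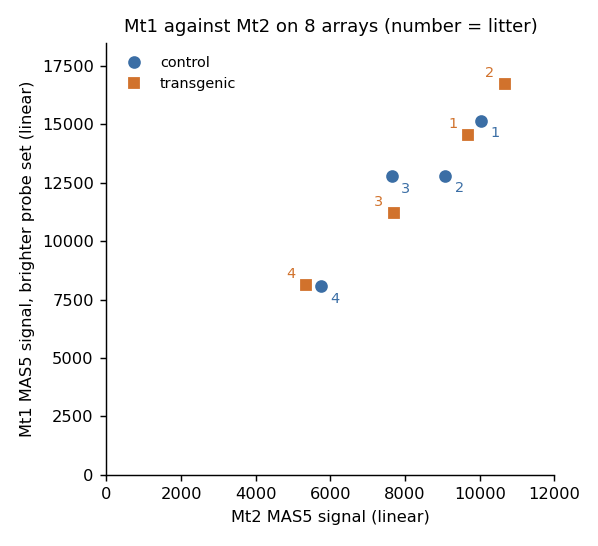
MAS5 signal of the brighter Mt1 probe set (vertical axis) against that of Mt2 (horizontal axis), linear scales from 0, 1 point per array with the litter number beside it. The arrays lie along a line from litter 4 at the bottom left to litters 1 and 2 at the top right, with r of 0.98 for the log2 values.

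By genotype, Mt1 averaged 12195 ± 2968 (SD, n = 4) in wild type and 12650 ± 3777 (SD, n = 4) in transgenic pools, a log2 fold change of 0.04 with a 95% interval from -0.41 to 0.48. For its dimmer probe set the log2 fold change was -0.08 (interval -0.57 to 0.40), so the sign differed between the probe sets. Mt2 averaged 8126 ± 1867 (SD, n = 4) and 8354 ± 2361 (SD, n = 4), with a log2 fold change of 0.02 (interval -0.40 to 0.44). With the litter as a block, which pairs the pools, the intervals narrowed to -0.13 to 0.21 for the brighter Mt1 probe set, -0.33 to 0.17 for the dimmer one and -0.11 to 0.15 for Mt2. With arrays left out, each of the 3 took both signs, from -0.15 to 0.23, from -0.26 to 0.19 and from -0.13 to 0.22. In each of these probe sets the transgenic pool was the higher one in 2 of 4 litters.

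Mtf1, the zinc-sensing transcription factor, had 5 probe sets, of which 3 were bright enough for the fit. The brightest gave 239, 213, 248 and 338 units in the wild type pools and 206, 287.5, 228 and 353 in the transgenic pools. It was highest in both arrays of litter 4, where the metallothioneins were lowest, and the genotype groups overlapped. Its r with the brighter Mt1 probe set was -0.67 over the 8 arrays (rho -0.43), but 0.51 over the 6 arrays without litter 4, so the negative value rests on that litter. The other Mtf1 probe sets did not share this pattern. The second ranged from 179 to 265 and was high in the control array of litter 1 and in both arrays of litter 3 (r with Mt1 of 0.34), and the next ranged from 156 to 266 with an r of 0.05. The log2 fold changes of these 3 were 0.04 (interval -0.34 to 0.41), -0.06 (-0.41 to 0.29) and 0.17 (-0.20 to 0.55). The remaining pair lay near background, between 5.16 and 37.8.

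Slc30a1, the zinc exporter of the plasma membrane, had 2 probe sets, and they did not vary together (r -0.04). The brighter one gave 547, 476, 485 and 534 units in the wild type pools and 376, 630.1, 521 and 399.9 in the transgenic pools. The controls were close together, while the transgenic arrays of litters 1 and 4 were below them all and that of litter 2 above them all. The means were 510.4 ± 35.4 (SD, n = 4) and 482 ± 118 (SD, n = 4), with a log2 fold change of -0.10 (interval -0.41 to 0.21). The dimmer probe set had 253, 257.5, 162 and 223 in the controls and 209, 204, 157 and 218 in the transgenics. The transgenic pool was the lower one in 4 of 4 litters, and it was lowest in both arrays of litter 3, and its groups overlapped. Its log2 fold change was -0.15 (interval -0.51 to 0.20). In r with the brighter Mt1 probe set the brighter and dimmer Slc30a1 probe sets stood at 0.30 and 0.03. Without litter 4 these were 0.29 and 0.50, and over the 4 litter differences 0.55 and -0.69, so the value of the dimmer one depends on the litters taken.

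Slc39a14, an importer of zinc, manganese and iron that inflammation induces in liver, had 4 probe sets, 3 of them bright enough. The brightest had signals of 3666, 2827, 3266 and 3256 in the controls and of 3656, 3289, 3558 and 3282 in the transgenics. Only the control array of litter 2 stood clearly below the others, and the spread over the 8 arrays was small, with an SD of 8.25% of the mean against 25.4% for the brighter Mt1 probe set. The means were 3254 ± 343 (SD, n = 4) and 3446 ± 189.5 (SD, n = 4), and the log2 fold change was 0.09 (interval -0.09 to 0.26, or -0.04 to 0.22 with the litter as a block).

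The second Slc39a14 probe set gave 881, 686, 723 and 829.2 units in the wild type pools and 895, 640.0, 816 and 844 in the transgenic pools. It was high in both arrays of litters 1 and 4 and low in both arrays of litter 2, and the litter accounted for 90.6% of its sum of squares. Its order of litters was not that of the metallothioneins (r with Mt1 -0.35). The remaining bright one ranged from 545 to 729.5, with 25.3% of its sum of squares between litters and an r with Mt1 of 0.46. The log2 fold changes of these were 0.03 (interval -0.22 to 0.28) and 0.12 (interval -0.11 to 0.34). The fourth lay between 7.78 and 71.4.

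Slc39a8, an importer of zinc and manganese, was close to the limit of measurement. Its brighter probe set gave 139.6, 169, 159 and 132 units in the controls and 130.1, 136, 117 and 155.5 in the transgenics. In 3 of 4 litters the transgenic pool was the lower one and the groups overlapped, with a log2 fold change of -0.13 (interval -0.47 to 0.22). Its order over the arrays ran against that of the brightest Slc39a14 probe set (r -0.73, rho -0.55), and it had no relation to Mt1 (r -0.04). The other probe set lay between 28.5 and 49.7.

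**Figure D3:**
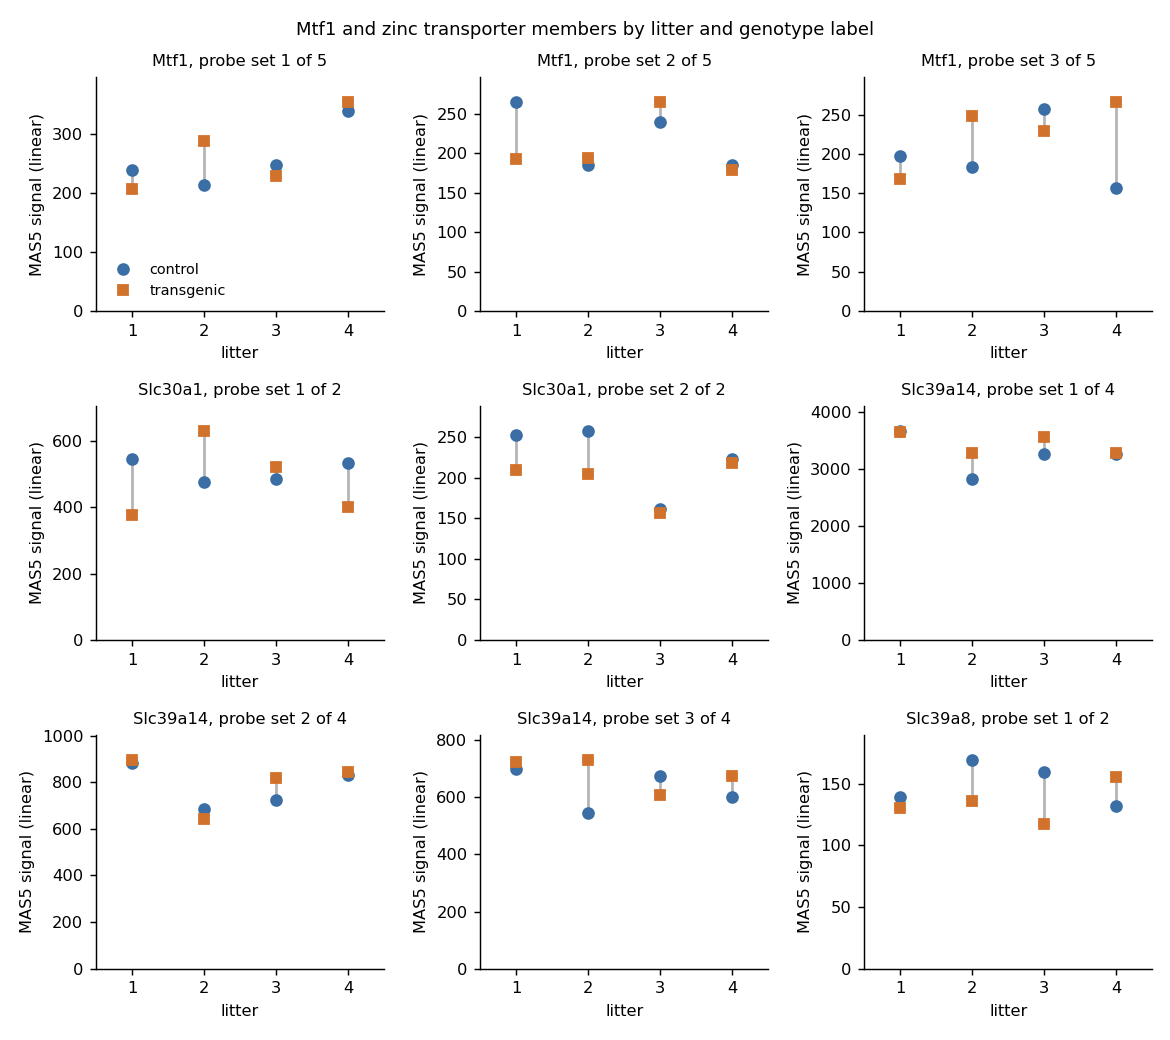
MAS5 signal on linear scales from 0 of the 9 bright probe sets of Mtf1, Slc30a1, Slc39a14 and Slc39a8 by litter, 1 point per array, blue circles control and orange squares transgenic. Litter 4 is highest for the first Mtf1 probe set (338 and 353), and probe sets of the same gene differ in pattern.

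Across the 66 pairs of the 12 bright member probe sets, r ranged from -0.73 to 0.98 with a median of 0.06. Among the 56 pairs of different genes other than Mt1 with Mt2, the highest was 0.54. No other pair of genes reached the r of Mt1 with Mt2 over the 8 arrays. Over the 4 litter differences some did: Mt1 had an r of 0.97 with the Slc39a14 probe set that ranged from 545 to 729.5 and 0.93 with the brightest Mtf1 probe set, Mt2 one of 0.94 with the brightest Slc39a14 probe set, and the brighter Slc30a1 probe set one of 0.99 with the latter. Over all 8 arrays these 4 pairs stood at 0.46, -0.67, 0.18 and -0.07, and 4 differences fix an r only loosely.

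Of the 12 bright member probe sets, 7 were higher and 5 lower in the arrays labelled transgenic, with log2 fold changes from -0.15 to 0.17 and a median of 0.02. The split by sign is not stable: 7 of the 12 took both signs with arrays left out. Of these, 0 passed an adjusted p of 0.05 in limma, as did 0% of all 22518 probe sets tested; 3.29% of those had an unadjusted p under 0.05. The genotype groups did not overlap for 0 of the 12, against 2.27% of all tested. The direction was the same in 4 of 4 litters for 1 of the 12 (the dimmer Slc30a1 probe set), against 13.4% of all tested. Intervals reached no further than -0.57 and 0.55. Members entered these counts only where bright, and 4 of the 16 probe sets were not.

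**Figure D4:**
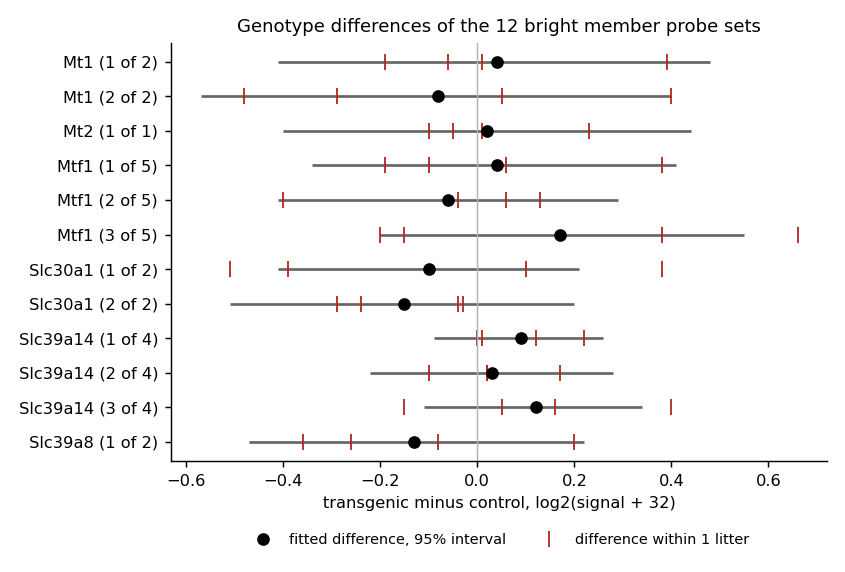
Transgenic minus control difference in log2(signal + 32) for the 12 bright member probe sets, with black points and lines for the fitted value and its 95% interval and red ticks for the difference within each of 4 litters. Every interval spans 0, and the fitted values run from -0.15 to 0.17.

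Between genotypes, the bright ones among the other zinc transport genes had log2 fold changes from -0.34 to 0.10. Of the 23 other genes of the Slc30 exporter family, the Slc39 importer family and the metallothioneins, 14 were bright enough, and 6 were higher and 8 lower in transgenics, with a median log2 fold change of -0.02 (all tested genes -0.001). None passed the adjusted threshold in limma, whose adjusted p was 1.00 for each of the 14, and 1 had an unadjusted p under 0.05. That gene was Slc30a3, an exporter known for loading zinc into synaptic vesicles, at 313 ± 23.7 (SD, n = 4) in wild type and 244 ± 48.4 (SD, n = 4) in transgenic pools. Its log2 fold change of -0.34 (interval -0.64 to -0.03) had the same sign in 3 of 4 litters. Slc39a1, a plasma membrane importer, was at -0.10 (interval -0.30 to 0.09), Slc39a11 at -0.08, lower in 4 of 4 litters, and Slc39a10, another plasma membrane importer, at 0.10 (interval -0.14 to 0.33). Slc30a4 was at 0.09 and Slc30a7, an exporter into the Golgi, at -0.05. Slc39a7, which releases zinc from the endoplasmic reticulum, was at -0.03. Slc39a13, a Golgi transporter whose loss causes a connective tissue disorder, was at 0.03. Among the 9 that were too dim, Mt3 went down to 5.13 and Mt4 ranged from 2.16 to 56.4, and the highest value of the 9 was 158.1.

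A few of these transporters varied over the arrays much as the metallothioneins did, or in the opposite direction. Likeness is the mean of the Pearson r with the brighter Mt1 probe set and with Mt2 over the 8 arrays. The brighter tested probe set of Slc39a10 ran opposite to the metallothioneins, at -0.88. It gave 799, 832, 948 and 1014 in the controls of litters 1 to 4 and 899, 866, 945 and 1150.1 in the transgenics. It was thus highest in litter 4 and higher in litter 3 than in litters 1 and 2 in both pools. Slc39a7 (0.77) and Slc39a11 (0.74) ran the same way as the metallothioneins. The match was partial for Slc39a7, whose lowest control was in litter 3 (5300.5, against 5619.6 in litter 4). Of the 14 bright genes, 2 had a likeness of at least 0.7 and 1 had one of -0.7 or less. Of 11013 tested genes, 4.63% had a likeness of at least 0.7 and 3.99% one of -0.7 or less.

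In pathways that induce metallothioneins or share their metals, 0 genes passed the adjusted threshold between genotypes in limma, each with an adjusted p of 1.00 among those named here. Of all tested genes, 49.7% were higher in transgenics, with a median log2 fold change of -0.001. The counts by sign in each list were not tested, and genes of a list can vary together. The list of glucocorticoid-induced genes also holds Nr3c1, the gene of the glucocorticoid receptor itself. The list gave 11 higher and 2 lower of 13, with a median of 0.05. Dusp1, a phosphatase that switches off MAP kinases, was at 0.17 (interval 0.01 to 0.33), Klf9 at 0.14 and Ddit4 at -0.19. Genes of the cytokine and acute-phase response gave 7 higher and 5 lower, with Stat3, the transcription factor downstream of interleukin receptors, at -0.20 (interval -0.38 to -0.01), the chemokine gene Cxcl1 at 0.50 (interval -0.08 to 1.08) and Il6ra at -0.67 (interval -1.46 to 0.12). Immediate early genes gave 14 higher and 3 lower, with a median of 0.06 and Klf4 at 0.29 (interval 0.05 to 0.53), Ier2 at 0.13 and Myc at 0.12. Unadjusted p values under 0.05 were found for 1 gene in each of these lists, Dusp1, Stat3 and Klf4.

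Copper and iron genes gave 5 higher and 10 lower of 15. Slc31a1, the copper importer, was at -0.14, Slc31a2 at -0.13 and the iron importer Slc11a2 at -0.16, each lower in 4 of 4 litters. These 3 were named for the smallest p of the list, and 13.4% of all tested probe sets had the same direction in 4 of 4 litters. Glutathione and oxidative stress genes gave 5 and 5, with Keap1 at -0.13, Nfe2l2, the transcription factor it restrains, at -0.10 and Srxn1 at 0.17. Heat shock genes gave 3 higher and 6 lower, with Hspa1a at -0.14, Hspa1b at -0.11 and Dnajb1 at -0.13. Hypoxia genes gave 5 higher and 9 lower, with Higd1a at -0.12, Ndrg1 at -0.10 and Ddit4, a member of this list too, at -0.19. In these 4 lists 0 genes had an unadjusted p under 0.05.

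Across litters, by contrast, several of these lists ran with the metallothioneins. Of all tested genes, 48.0% had a likeness above 0, with a median of -0.02. All 13 tested genes of the glucocorticoid list, Nr3c1 (0.42) among them, had a likeness above 0, from 0.23 to 0.88 with a median of 0.62. The highest were Cebpd, a transcription factor, at 0.88, Hsd11b1, the enzyme that regenerates active glucocorticoid, at 0.75 and Pdk4, a kinase that restrains glucose oxidation, at 0.74. Cebpd had signals of 3248, 3420, 3028 and 2666 in the controls of litters 1 to 4 and of 3311, 3756, 3298 and 2844 in the transgenics, lowest in litter 4 in both pools. These 3 were named for their likeness after the values were seen. The mean of the list had an r of 0.89 (rho 0.86) with the mean of Mt1 and Mt2, and 0.72 without litter 4.

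All 17 immediate early genes had a likeness above 0 too (median 0.59), led by Jund at 0.84 and Atf3 at 0.82, but the r of their mean fell from 0.70 to 0.22 without litter 4. Of the cytokine and acute-phase list 11 of 12 were above 0, with Cebpb and Cxcl1 both at 0.80 (r of the mean 0.78, 0.72 without litter 4). Hypoxia genes had an r of 0.64 (0.43 without litter 4), with Vegfa, the vascular growth factor, at 0.86. The mean of the copper and iron genes ran the opposite way (r -0.68), but the median likeness of these genes was -0.15, and 4 of 15 were above 0. The mean of the heat shock genes had an r of 0.09. The lists share arrays and litters, Cebpd belongs to both the glucocorticoid and the cytokine list, and no cause of the shared pattern was tested.

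Several lists of markers of other cells differed by litter. The mean of the bright erythroid markers was higher in all arrays of litters 3 and 4 than in those of litters 1 and 2. The means of skeletal muscle markers and of fibroblast and perichondrium markers were lowest in both arrays of litter 1. The summed signal of the 7 erythroid markers on the array, 3 of them bright, ranged from 6619 to 13921 in controls and from 5519 to 10822 in transgenics, and the mean of the bright 3 had an r of -0.63 with the metallothioneins (-0.82 to -0.50 with 1 litter left out). Each of these 3 was lower in the transgenic pool of 4 of 4 litters, with a median log2 fold change of -0.28. Of all tested probe sets, 13.4% had the same direction in 4 of 4 litters. The single-symbol probe sets of Hba-a1, Hba-a2, Klf1 and Epb42 were near background. Probe sets that name several genes were not used in the lists, so any shared by Hba-a1 and Hba-a2 were left out. Endothelial markers, 8 of 10 bright, had an r of -0.65 (-0.86 to -0.44), with sums of 1973 to 2589 in controls and 1608 to 2453 in transgenics. The r of the 15 chondrocyte markers was 0.41 (0.12 to 0.63 with 1 litter left out). Lists whose sign depended on the litter left out were fibroblast and perichondrium markers at -0.09 (-0.53 without litter 2, 0.68 without litter 1) and skeletal muscle markers at -0.28 (-0.67 without litter 2, 0.21 without litter 1). So were granulocyte markers at -0.49 (-0.67 without litter 2, 0.17 without litter 4) and macrophage and osteoclast markers at 0.03 (-0.45 without litter 4, 0.47 without litter 1). Of the adipocyte markers only 2 were bright. Their part in the metallothionein pattern was not tested.

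**Figure D5:**
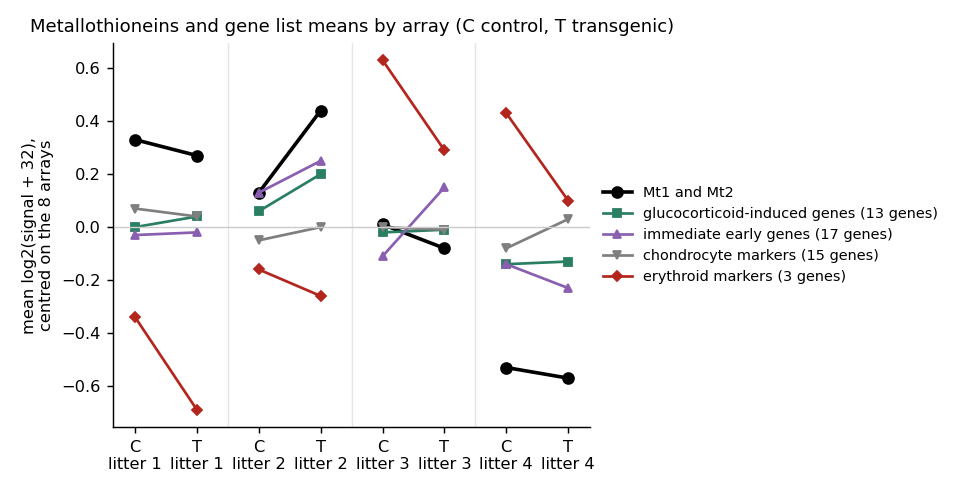
Mean log2(signal + 32) of Mt1 and Mt2 and of 4 gene lists, each centred on its mean over the 8 arrays, by array (C control, T transgenic), with the arrays of a litter joined. Metallothioneins fall to -0.53 and -0.57 in litter 4, where glucocorticoid-induced genes are at -0.14 and -0.13, while erythroid markers are above 0 in litters 3 and 4.

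The genes whose pattern was most like that of Mt1 and Mt2 over the 8 arrays had a likeness of 0.95 to 0.97. They were Tgoln1, a protein of the trans-Golgi network, Serpini1, a protease inhibitor, Cry2, a repressor of the circadian clock, Ppp2r5c, a phosphatase subunit, Prnp, the copper-binding prion protein, Smo, the transducer of Hedgehog signals, Nrf1, a regulator of mitochondrial genes, Nabp2, a binder of single-stranded DNA, Pde4b, which degrades cyclic AMP, and Smim3. Signals of 3 of them by litter were as follows. Prnp averaged 7585 in litter 4 and 8440 in the 6 other arrays, Smo 1637 and 2040.0, and Cry2 596 and 737. The other 3 probe sets of Tgoln1 ranged from 0.01 to 0.71 and the other one of Prnp stood at 0.54. Other probe sets of Ppp2r5c (-0.37 to 0.49) and Nrf1 (-0.47 to -0.10) did not follow, whereas those of Pde4b (0.60) and Smo (0.66) did in part.

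The genes that ran most nearly opposite were Idh3a, a subunit of a citric acid cycle enzyme (-0.985), Prcp, a lysosomal carboxypeptidase (-0.956), Pttg1, securin, which keeps sister chromatids joined until anaphase (-0.956), Tubgcp6, of the gamma-tubulin complex (-0.950), and Dennd5b (-0.949). Idh3a averaged 3389 in litter 4 and 2830 in the other arrays, and its other probe sets had a likeness of -0.70 and -0.39. For the brightest Slc39a14 probe set the most alike were Sulf2, an extracellular sulphatase that edits heparan sulphate (r 0.956), Mtap (0.951), Serbp1 (0.935), Nolc1 (0.934) and Atxn10 (0.933). Another probe set of Atxn10 stood at -0.92, and others of Sulf2 spanned -0.53 to 0.83. With 8 arrays and 11013 genes ranked, such extremes are a description of these arrays.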

How the data were processed

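The members and gene lists were chosen with earlier results of these data known. The authors deposited probe set intensities on a linear scale; the submitters' processing notes name MAS5. The MAS5 version is not given here. MAS5 subtracts mismatch signal, which leaves dim probe sets noisy. In the deposited values each array's mean without its top and bottom 2% was 500, so levels are relative to the whole array.

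Leaving out 64 manufacturer's controls kept 45037 probe sets. Values were turned to log2(signal + 32), 32 being the arrays' median 25th percentile, which shrinks fold changes of dim probe sets. Probe sets with a mean signal above the median (22518) went into limma 3.58.1 (lmFit, then eBayes with its trend option; R 4.3.3, statmod 1.5.0), without a litter term, adjusting by Benjamini-Hochberg over all of them. Dim members took their value from a fit with no filter. The fitting code was tested on simulated data. Figures used matplotlib 3.10.9.

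Of the probe sets, 34945 had 1 symbol in GEO's platform annotation, 932 several and 9160 none. Gene identifiers looked up in RefSeq (GRCm38.p6) changed 0 symbols. Files give no genome build, so only the promoter windows carry coordinates. The Slc39a14 promoter was not analysed here.

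Lists took the brightest tested probe set per gene. Named genes were all members, the 8 zinc transport genes with the smallest p, 3 per other list, the 10 genes most like and 5 most unlike Mt1 and Mt2, and 5 like Slc39a14. The litter shares were computed after seeing the data. The design text groups embryos by genotype within 4 litters, and samples of 1 replicate number share a code in the labels, so the number was taken as the litter and pairs the arrays. Deviations from group means of same-litter arrays correlated at 0.28, 0.17, 0.04 and 0.14 (litters 1 to 4), against a mean of -0.05 between litters. Pools of a group come from separate litters. The number of arrays limits the precision.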

Additional observations from a re-analysis of the deposited data

Results flagged for a closer look

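The dimmer Slc39a8 probe set stood apart on 1 array. The transgenic array of litter 4 had a signal of 28.5, against 45.7 to 49.7 in the 3 other transgenic arrays, and its gap to the next was 0.831 of the range of the group on the log2 scale, above Dixon's 95% critical value for 4 values. All of these signals lie near background. It was the only such value in 48 groups of 4 arrays examined, of which chance would pick about 1 in 20.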

How the results depend on the processing

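The count of member probe sets past the adjusted threshold in limma was 0 under all 27 alternatives. Over the whole table the count was 0 except where litter 4 was left out in part or whole: leaving out arrays gave 0 to 4 probe sets, namely 1 (Xist) without its transgenic array, 2 (both Dcaf12l1) without both arrays, and these 3 with Agtr2 when the litter was also a replicate block. With that block and all arrays the count was 0, and unadjusted p values under 0.05 rose from 740 to 1248 (1268 as a random block, 1844 of 45037 with no filter). The block changed no call of a member. Median centring changed the split of such p values from 355 higher and 385 lower to 482 and 235. Of 432 member log2 fold changes under alternatives, 429 stayed within 1 SD of the value given; the 3 others belong to near-background Mtf1 probe sets with a smaller constant (0.85, 0.59 and -0.35). The r of Mt1 with Mt2 was 0.91 to 0.99 with arrays left out and 0.79 over litter differences (replicate block). With the other Mt1 probe set it was 0.93, or 0.74 without litter 4. With arrays left out, the log2 fold change of Slc30a4 ran from -0.02 (without litter 4) to 0.21, that of Slc39a7 from -0.07 to 0.01 (without litter 4) and that of Slc39a13 from -0.04 (without litter 1) to 0.08, so their directions turned, with or without the block. The cause was not tested. Among the members, the signs of 7 of 12 bright probe sets turned too, 2 of Mt1, 2 of Mtf1 and 1 each of Mt2, Slc30a1 and Slc39a14, within -0.27 to 0.23. Genes near background, among them Mt3 and Mt4, are limited by signal over background.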

Other observations

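Since Cry2 was among the genes most like the metallothioneins, 16 genes of the circadian clock were looked at, a list chosen after the values were seen. Of these, 14 were bright enough, and 3 had a likeness to Mt1 and Mt2 of at least 0.7, against 4.63% of all tested genes. They were Cry2 at 0.96, Bhlhe40, a repressor of clock genes, at 0.82 and Dbp, a clock output factor, at 0.72. Cry2 prompted the list, so its place among the 3 was fixed beforehand. Bhlhe40 gave 1949, 2460, 1963 and 1762 units in the wild type pools of litters 1 to 4 and 2241, 2499, 2067 and 1603 in the transgenic pools, lowest in litter 4 in both pools. Arntl, which activates the clock, had a likeness of -0.46 and Per1 one of 0.37, and the median of the 14 was 0.38.

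Of the 10 glutathione and oxidative stress genes tested, 2 had a likeness above 0, and the median was -0.47. The r of their mean with the metallothioneins was -0.57, but 0.20 without litter 4. At the ends, Txnrd1, a thioredoxin reductase, had a likeness of -0.90 to the metallothioneins, and Sqstm1, an autophagy receptor, one of 0.83. Among the 15 chondrocyte markers the likeness ran from -0.48 (Col2a1) to 0.88 (Sox9), with a median of 0.31. Sox9, the master transcription factor of cartilage, had signals between 3889 and 5004 over the 8 arrays. It was named after the values were seen.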
